A study of Mus musculus with 10 samples.

Results

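A list of 50 genes of mitosis and the mitotic spindle was followed in endothelium, the lining of blood vessels, sorted from neonatal mouse lungs. Each gene was represented by its brightest probe among those with a detection p-value below 0.05 on at least 2 arrays, and 42 of the 50 genes had such a probe, out of 16144 genes measured in all. Ccnb1, the gene of cyclin B1, was not analysed here. Ccnb2, Ube2c, Pttg1, Nuf2, Hmmr, Ect2 and Racgap1 had probes that did not pass the detection filter, so no level is given for these 7 genes. Neither of the 2 probes of Hmmr, a spindle-associated protein, was detected on any array, with raw intensities between 83.38 and 104.7. Of the 42 measured genes, 29 were detected on all 10 arrays, and 21 had several probes past the filter.

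The 10 Illumina beadchip arrays held RNA of endothelial cells sorted from the lungs of C57/Bl6 mice on postnatal day 6, in 2 mouse lines. Rspo3-iECKO (3 arrays) carried floxed alleles of Rspo3, a secreted amplifier of Wnt signals, together with the tamoxifen-inducible recombinase Cdh5-CreERT2, which the endothelial Cdh5 promoter drives. Evi-iECKO (2 arrays) carried floxed alleles of Evi, also named Wls, the carrier that brings Wnt ligands to the cell surface, with the same recombinase. Rspo3-WT (2 arrays) and Evi-WT (3 arrays) were the Cre-negative controls of each line, so the recombinase itself differed between control and deleted mice. The sources used here do not give the induction schedule, the markers of the sort, or whether animals were pooled. The p-values therefore measure the spread between these samples, which may be technical.

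Median raw intensity per array ranged from 89.65 to 110.2, 46.47% to 51.26% of probes were detected, and 36 to 40 of the 42 genes were detected on an array. All 10 endothelial markers of the list used here were measured, and the log2 level of Cdh5, the VE-cadherin gene, was between 8.81 and 9.74 on every array, while Erg, an endothelial transcription factor, was detected on 3 arrays. For Wls the log2 difference between deleted and control arrays of the Evi line was -1.10 (SE 0.27, limma with Benjamini-Hochberg, adjusted p = 0.357). The Rspo3 probes did not pass the filter, so the loss of Rspo3 cannot be checked on these arrays. Evi-iECKO replicate 2 stood apart by its markers of alveolar type 2 cells, the surfactant-making cells of the lung epithelium. The mean of all 8 such markers, in log2 units from each gene's mean over the 10 arrays, was 1.80 on that array and -0.97 on Evi-iECKO replicate 1, against -0.90 to -0.03 in Evi-WT and -0.29 to 0.35 in the Rspo3 line. The globin genes Hba-a1 and Hbb-b1 were detected on all 10 arrays, at log2 levels of 8.38 to 10.63 and 10.15 to 11.60. In the same units, the mean of 7 erythroid and platelet markers was -0.50 and 0.03 in Evi-iECKO. It was -0.10 to 0.38 in Evi-WT and -0.17 to 0.08 in the Rspo3 line. The part of these cell types in the results below was not tested. Leaving out Evi-iECKO replicate 1 turned the sign of the Evi difference for 9 of the 42 genes, and leaving out replicate 2 for 14. Without each Evi-WT array in turn, 8, 8 and 4 signs turned. In the Rspo3 line the counts were 8 and 11 for Rspo3-WT, and 5, 4 and 4 for Rspo3-iECKO.

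Mitotic genes are switched on late in the cell cycle. Cyclins and the kinases they activate start mitosis, kinesins and kinetochore proteins attach chromosomes to the spindle, a checkpoint delays separation until all are attached, and the anaphase-promoting complex then destroys cyclin B and securin so that the chromosomes part. In growing vessels of the neonatal lung the RNA of these genes serves as a measure of dividing cells. In bulk RNA, fewer dividing cells and less of the RNA per dividing cell cannot be told apart.

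Many promoters of the group share a pair of short motifs, which the choice of genes did not use. The CHR (cell cycle genes homology region, searched as TTTGAA or TTCGAA on both strands) is known as a binding site of the DREAM and MuvB complexes, and the CCAAT box (searched as CCAAT on both strands) as a binding site of NF-Y. RefSeq promoter windows, from 250 bases before to 50 bases after the annotated start (GRCm38.p6), were matched for 42 of the 50 genes, in 46 windows. The CHR letters occurred in 35 of these windows (76.1%), against 19.2% of all 32851 windows. The CCAAT letters occurred in 80.4% against 37.4%, and both in 69.6% against 7.52%. A CHR match and a CCAAT match shared bases in 1 of the 46 windows. By gene, the CHR share was 76.2% of the 42 matched genes, 62.5% of 48 other mitosis genes and 19.4% of 36 S-phase genes, whose products copy DNA. Over all genes it was 21.7%. The CCAAT share differed less between these lists, at 78.6%, 64.6% and 63.9%, beside 41.1% of all genes. Where a window of the group held the CHR letters, a match lay within 50 bases of the start in 30 of 35 windows (85.7%), against 28.7% of all windows that held them. A match is a description of letters and does not show that a factor binds there.

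**Figure D1:**
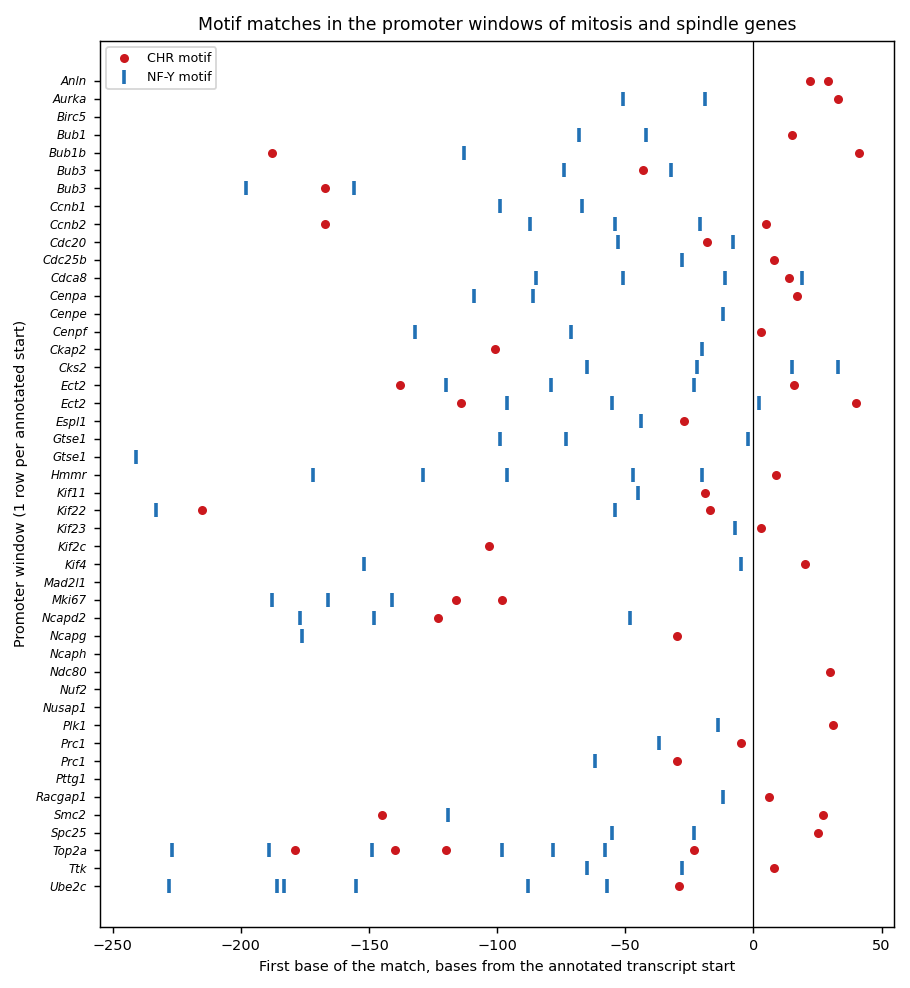
Positions of motif matches in the promoter windows of the mitosis and spindle genes, with 1 row per annotated start. The horizontal axis gives the first base of each match in bases from the start (0, vertical line). Red points are CHR matches and blue bars are matches of the CCAAT box that NF-Y binds. In 30 of the 35 windows with a CHR match, a match lies within 50 bases of the start.

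To show what the motif pair looks like, 6 promoters are printed from 250 bases before to 20 bases after the start, read 5′ to 3′ on the gene's own strand. They are the genes holding both motifs with the smallest p-values in the comparison of the lines, described below, and capitals mark the matches (TTCAAA and ATTGG are the motifs on the opposite strand). Top2a lies at chr11:99024170-99024439 on the minus strand, Cdca8 at chr4:124936898-124937167 on the minus strand, Espl1 at chr15:102296043-102296312 on the plus strand, Cdc20 at chr4:118437324-118437593 on the minus strand, Ncapd2 at chr6:125191567-125191836 on the minus strand and Ttk at chr9:83834439-83834708 on the plus strand (RefSeq, GRCm38.p6).
Top2a: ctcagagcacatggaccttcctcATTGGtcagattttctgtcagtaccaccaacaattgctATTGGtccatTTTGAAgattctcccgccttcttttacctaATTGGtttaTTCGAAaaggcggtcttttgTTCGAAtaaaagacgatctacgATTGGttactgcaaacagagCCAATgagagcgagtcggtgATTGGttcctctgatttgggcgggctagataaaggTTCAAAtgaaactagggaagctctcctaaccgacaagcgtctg
Cdca8: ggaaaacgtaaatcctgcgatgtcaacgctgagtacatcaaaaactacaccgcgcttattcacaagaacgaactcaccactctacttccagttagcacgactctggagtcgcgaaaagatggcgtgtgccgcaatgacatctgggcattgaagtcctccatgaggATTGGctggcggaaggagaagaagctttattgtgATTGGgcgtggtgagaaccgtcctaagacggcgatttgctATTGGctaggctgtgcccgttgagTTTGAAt
Espl1: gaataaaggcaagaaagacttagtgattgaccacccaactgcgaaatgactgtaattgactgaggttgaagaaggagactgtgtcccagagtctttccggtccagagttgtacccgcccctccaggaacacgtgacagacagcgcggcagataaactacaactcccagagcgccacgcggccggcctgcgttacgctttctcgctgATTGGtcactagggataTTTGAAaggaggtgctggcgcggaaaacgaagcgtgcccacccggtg
Cdc20: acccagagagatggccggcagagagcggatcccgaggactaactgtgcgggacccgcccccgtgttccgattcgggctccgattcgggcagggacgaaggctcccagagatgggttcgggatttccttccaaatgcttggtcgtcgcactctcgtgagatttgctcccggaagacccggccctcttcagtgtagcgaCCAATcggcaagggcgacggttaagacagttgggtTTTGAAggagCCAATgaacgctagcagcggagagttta
Ncapd2: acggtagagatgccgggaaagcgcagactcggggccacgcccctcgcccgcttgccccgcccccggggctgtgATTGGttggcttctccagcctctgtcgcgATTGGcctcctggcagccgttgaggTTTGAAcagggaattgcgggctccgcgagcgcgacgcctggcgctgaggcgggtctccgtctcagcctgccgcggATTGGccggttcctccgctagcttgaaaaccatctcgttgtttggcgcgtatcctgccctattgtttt
Ttk: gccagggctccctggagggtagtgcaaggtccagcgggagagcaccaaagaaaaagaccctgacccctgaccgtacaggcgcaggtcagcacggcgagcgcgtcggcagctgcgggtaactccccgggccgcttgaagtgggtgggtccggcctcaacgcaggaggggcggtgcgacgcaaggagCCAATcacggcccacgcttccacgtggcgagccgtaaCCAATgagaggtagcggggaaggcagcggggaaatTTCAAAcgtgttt
Top2a held 4 CHR and 6 CCAAT matches in this stretch, Cdca8 1 and 3, Espl1 1 and 1, Cdc20 1 and 2, Ncapd2 1 and 3, and Ttk 1 and 2.

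The question of the study, per its title, was which endothelial genes both deletions affect alike. For the mitotic genes, none of the 42 passed an adjusted p of 0.05 in either deletion, in the mean of both, or in their difference (limma, Benjamini-Hochberg over 16144 genes), and 0% of all genes did in any of these 4 comparisons with all arrays. In the Rspo3 line 25 of 42 genes had a higher mean in the deleted group, and the median log2 difference was 0.06, beside -0.01 over all genes. In the Evi line 24 of 42 were higher and the median was 0.03, beside 0.01 over all genes. These signs are those of the brightest probes. Of the 21 genes with several probes, all probes had the same sign for 6 in the Rspo3 line and for 13 in the Evi line. At an unadjusted p below 0.05 there was 1 gene of the 42 in each deletion, where 4.35% of all genes had such a p for the Rspo3 deletion, and 7.99% for that of Evi. The 95% interval of the log2 difference lay within 2-fold in both directions for 35 of 42 genes (83.3%, beside 91.9% of all genes) for the Rspo3 deletion, and 36 of 42 (85.7%, beside 88.5%) for that of Evi.

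**Figure D2:**
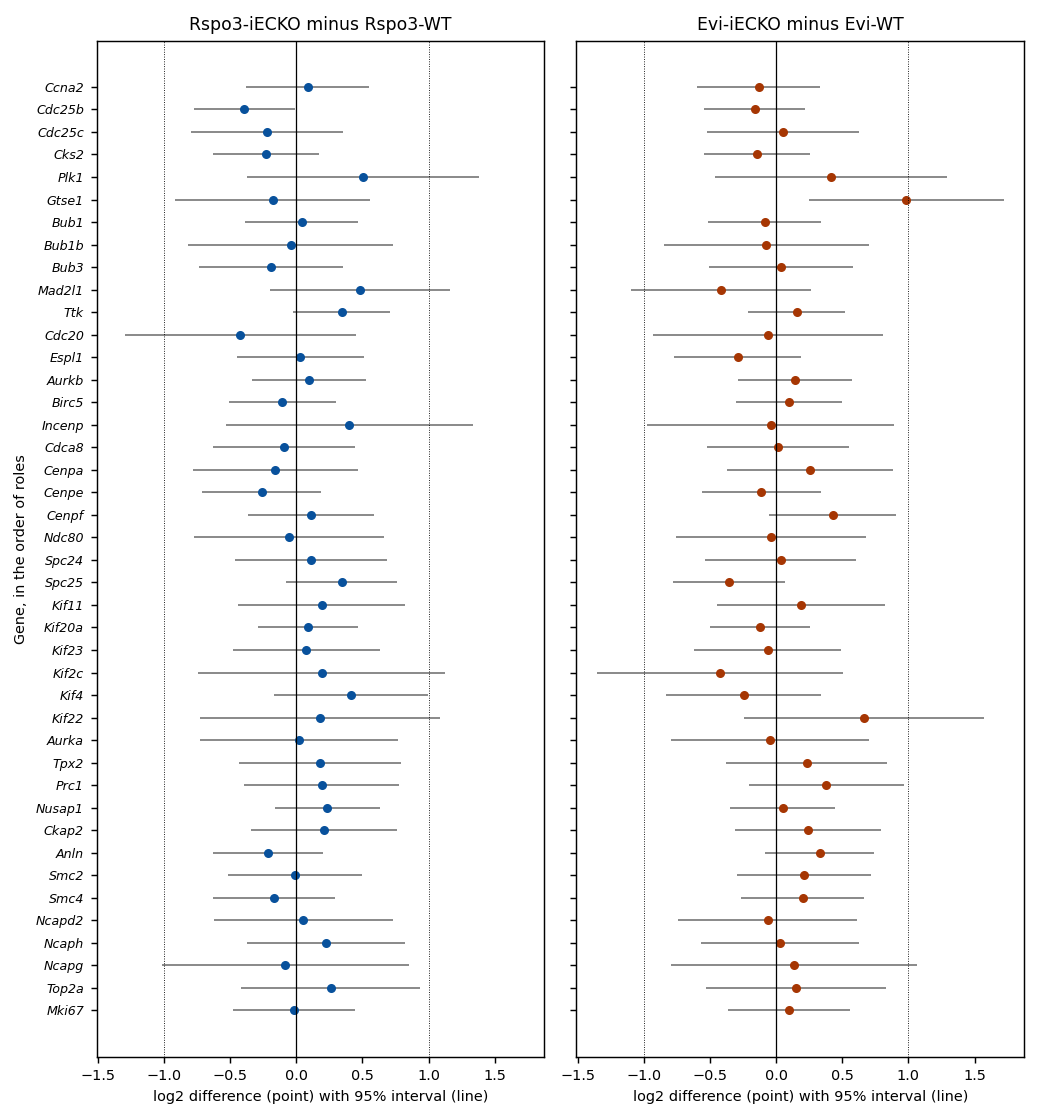
Log2 difference of each measured gene between deleted and control arrays (points), with its 95% interval from the limma fit (lines), for the Rspo3 line (left) and the Evi line (right). Dotted lines mark a 2-fold difference. Most intervals cross 0, and Gtse1 in the Evi line is the farthest point from 0, at 0.98.

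Mki67 encodes Ki-67, the coat protein of mitotic chromosomes that is the usual marker of cycling cells. Mki67 had log2 levels of 8.83 and 8.57 in Rspo3-WT, 8.71, 8.65 and 8.69 in Rspo3-iECKO, 8.95, 8.55 and 8.20 in Evi-WT, and 8.67 and 8.66 in Evi-iECKO. In both lines every deleted array lay inside the range of its controls. Its mean log2 level was 8.70 ± 0.19 (SD, n = 2) in Rspo3-WT, 8.68 ± 0.03 (SD, n = 3) in Rspo3-iECKO, 8.57 ± 0.37 (SD, n = 3) in the Evi-WT arrays, and 8.66 ± 0.004 (SD, n = 2) in the Evi-iECKO arrays. By the brightest probe the log2 difference was -0.02 (95% interval -0.48 to 0.44) for the Rspo3 deletion and 0.10 (-0.37 to 0.56) for the Evi deletion. The other 2 probes gave 0.18 and -0.25 for Rspo3 and -0.04 and 0.12 for Evi.

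**Figure D3:**
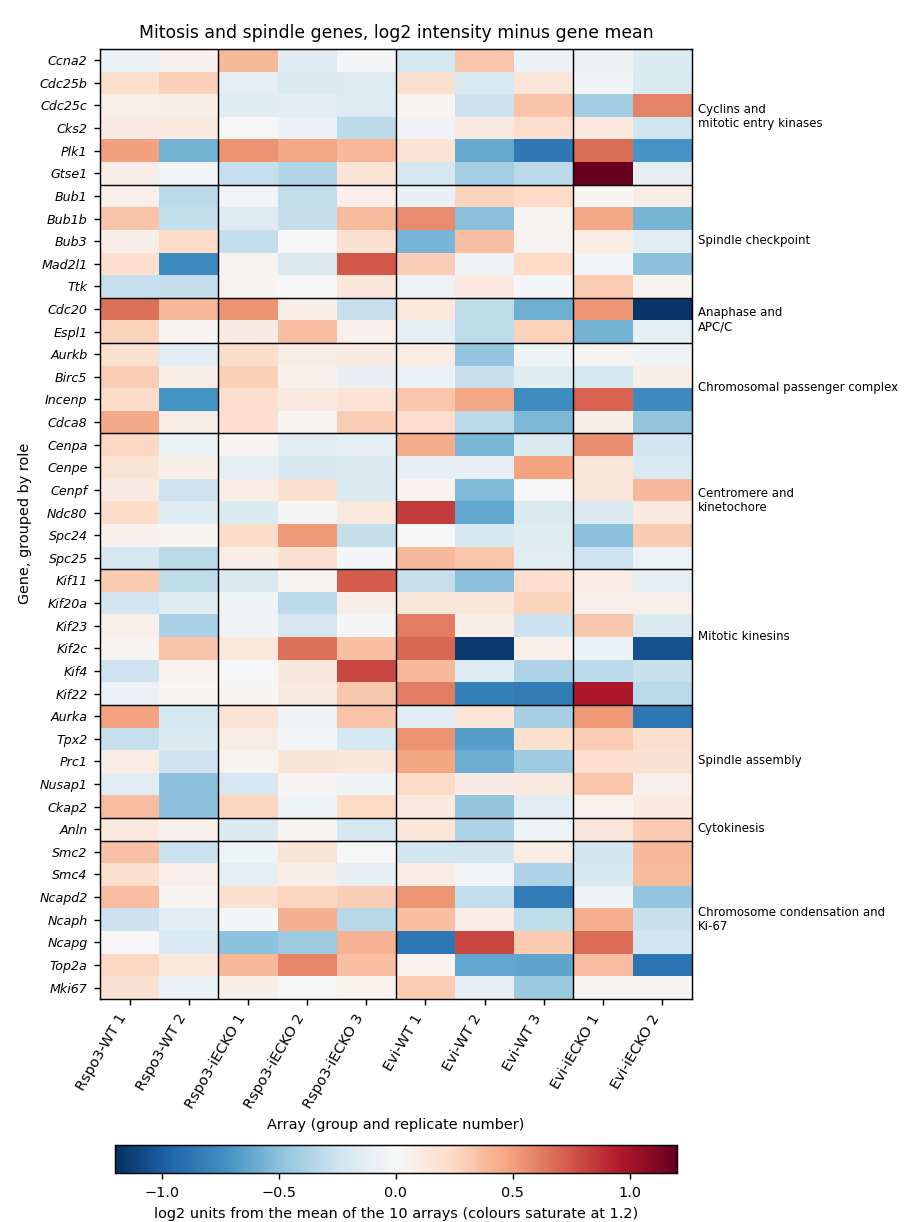
Log2 normalized intensity of the 42 measured genes on the 10 arrays, each gene centred on its own mean over the arrays and genes grouped by role. Red is above and blue below that mean, and colours saturate at 1.2 log2 units. The columns differ within Evi-WT: replicate 2 is the lowest array for 12 of 42 genes (9.76% of all genes), and replicate 1 is above it for 31.

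Among the cyclins, entry kinases and their regulators, 6 of 8 genes were measured. Cdc25b, a phosphatase that activates the mitotic cyclin-dependent kinase, had the smallest p of the group in the Rspo3 line. Cdc25b had log2 levels of 5.28 and 5.35 in Rspo3-WT, 4.96, 4.89 and 4.91 in Rspo3-iECKO, 5.26, 4.88 and 5.22 in Evi-WT, and 5.03 and 4.89 in Evi-iECKO. All 3 Rspo3-iECKO arrays lay below both controls, while in the Evi line the groups overlapped. The log2 difference was -0.39 (SE 0.18, limma adjusted p = 1) in the Rspo3 line, with an interval of -0.77 to -0.01. Plk1, the polo-like kinase that drives entry and spindle assembly, varied widely between replicates. Plk1 had log2 levels of 6.41 and 5.35 in Rspo3-WT, 6.46, 6.39 and 6.32 in Rspo3-iECKO, 6.09, 5.31 and 5.06 in Evi-WT, and 6.59 and 5.22 in Evi-iECKO. One control and one deleted array of the Evi line were high and the others low, and the 3 Rspo3-iECKO arrays lay close to the higher control. Its log2 difference was 0.50 (SE 0.41) for the Rspo3 deletion, and 0.42 (SE 0.41) for that of Evi. They were -0.03 without Rspo3-WT replicate 2 and -0.27 without Evi-iECKO replicate 1. Ccna2 had log2 levels of 4.21 and 4.35 in Rspo3-WT, 4.68, 4.14 and 4.28 in Rspo3-iECKO, 4.09, 4.63 and 4.22 in Evi-WT, and 4.23 and 4.14 in Evi-iECKO. This is cyclin A2, and it was not detected on any array of Rspo3-WT or Evi-iECKO, so no fold is given. Cdc25c, Cks2 and Gtse1 had log2 differences between -0.23 and -0.18 in the Rspo3 line by the brightest probes. A second Cdc25c probe gave 0.05, and the other 2 Gtse1 probes gave 0.10 and 0.06.

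Gtse1, a microtubule-associated protein of G2 and mitosis that also restrains p53, had the smallest p of the group in the Evi line. Gtse1 had log2 levels of 6.72 and 6.61 in Rspo3-WT, 6.36, 6.29 and 6.80 in Rspo3-iECKO, 6.43, 6.23 and 6.32 in Evi-WT, and 8.09 and 6.54 in Evi-iECKO. Both Evi-iECKO arrays lay above all 3 controls, by a wide margin for replicate 1 and a narrow one for replicate 2. Deleted arrays averaged 7.31 ± 1.09 (SD, n = 2) on the log2 scale and control arrays 6.33 ± 0.10 (SD, n = 3). The log2 difference was 0.98 (SE 0.34, limma adjusted p = 0.486), and 0.21 without Evi-iECKO replicate 1. The other 2 probes of the gene gave 0.62 (SE 0.19) and 0.40 (SE 0.27), and their log2 levels on that array were 4.92 and 5.20, within the range of the other arrays. In the Rspo3 line the difference was -0.18 by the brightest probe, and the other 2 probes had the opposite sign.

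**Figure D4:**
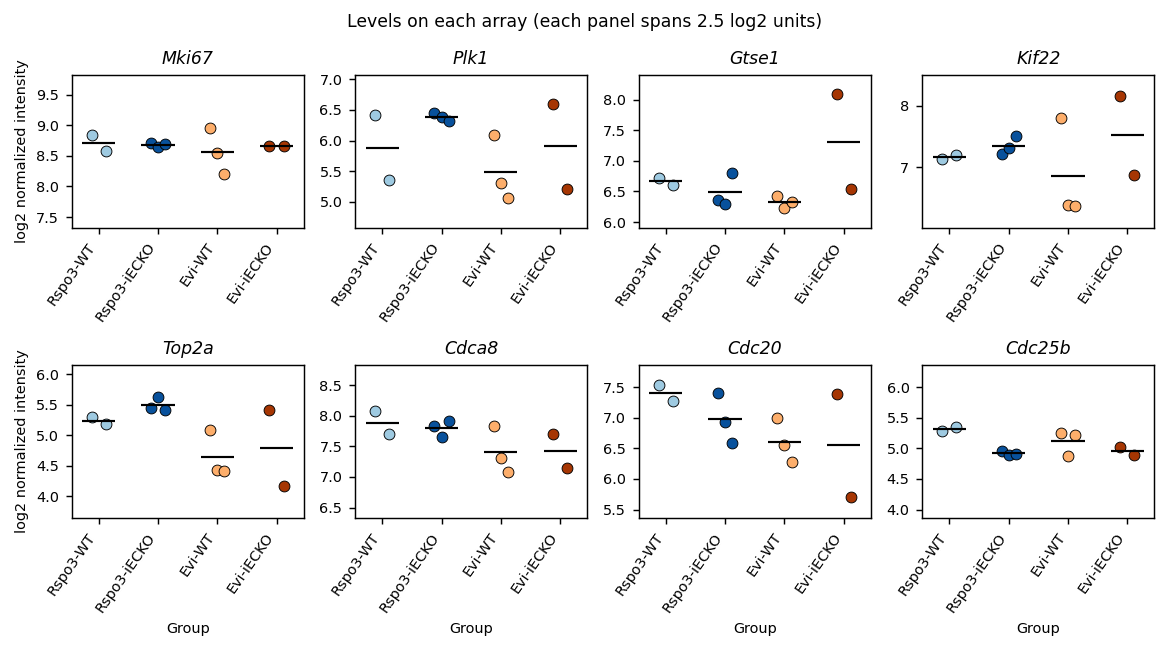
Log2 normalized intensity of 8 genes on each array (points, coloured by group) with the group mean (bar). Every panel spans 2.5 log2 units, but levels are not comparable between genes. Gtse1 is highest on a single Evi-iECKO array, at 8.09, and the group means of Mki67 lie between 8.57 and 8.70.

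All 5 measured genes of the spindle checkpoint overlapped between groups in the Evi line. Ttk, the kinase that starts the checkpoint, had the second smallest p in the Rspo3 line. Ttk had log2 levels of 4.27 and 4.26 in Rspo3-WT, 4.58, 4.55 and 4.69 in Rspo3-iECKO, 4.48, 4.66 and 4.53 in Evi-WT, and 4.85 and 4.58 in Evi-iECKO. The 3 Rspo3-iECKO arrays were above both controls, but this probe was not detected on either control array. Its estimated difference is therefore given as a bound, 1.23-fold, which has no interval of its own. The fitted log2 difference was 0.34 (SE 0.17, limma adjusted p = 1), with an interval of -0.02 to 0.71. That interval includes no change, so no minimum difference is shown. A second Ttk probe, detected on 1 of the 2 controls, gave a log2 difference of 0.13 (SE 0.25), with overlapping groups. Mad2l1, which blocks the anaphase-promoting complex, was low on a single control array. Mad2l1 had log2 levels of 5.33 and 4.37 in Rspo3-WT, 5.16, 4.96 and 5.87 in Rspo3-iECKO, 5.42, 5.07 and 5.37 in Evi-WT, and 5.11 and 4.64 in Evi-iECKO. The log2 difference of 0.48 (SE 0.31) in the Rspo3 line was 0.0009 without Rspo3-WT replicate 2. Bub1 had log2 levels of 4.49 and 4.11 in Rspo3-WT, 4.39, 4.13 and 4.49 in Rspo3-iECKO, 4.34, 4.69 and 4.66 in Evi-WT, and 4.45 and 4.51 in Evi-iECKO. Bub1 is a checkpoint kinase. This probe was not detected on any array of Rspo3-iECKO or Evi-iECKO, while a second probe, which did not pass the filter, was detected on 1 Rspo3-iECKO array. The groups of the measured probe overlapped in both lines.

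For the anaphase genes, Cdc20, the activator of the anaphase-promoting complex, and Espl1, the separase that cuts cohesin, were measured. Cdc20 had log2 levels of 7.53 and 7.27 in Rspo3-WT, 7.40, 6.93 and 6.59 in Rspo3-iECKO, 6.99, 6.56 and 6.28 in Evi-WT, and 7.39 and 5.70 in Evi-iECKO. The Rspo3-iECKO arrays reached into the range of the controls, and the 2 Evi-iECKO arrays stood on either side of all Evi-WT arrays. Espl1 had log2 levels of 5.28 and 5.04 in Rspo3-WT, 5.11, 5.39 and 5.08 in Rspo3-iECKO, 4.90, 4.72 and 5.29 in Evi-WT, and 4.45 and 4.91 in Evi-iECKO. Neither gene passed in either deletion, with log2 differences between -0.42 and 0.03 by the brightest probes. The other 3 Cdc20 probes gave -0.69, -0.60 and 0.20 for the Rspo3 deletion. The 4 members of the chromosomal passenger complex, which corrects wrong attachments, had log2 differences from -0.11 to 0.40 for the Rspo3 deletion, and -0.04 to 0.14 for that of Evi, by the brightest probes. A second probe of the subunit gene Cdca8, detected on all 10 arrays, gave -0.77 (SE 0.25) for the Rspo3 deletion, where the brightest gave -0.09. Aurkb had log2 levels of 4.84 and 4.53 in Rspo3-WT, 4.88, 4.72 and 4.75 in Rspo3-iECKO, 4.74, 4.19 and 4.60 in Evi-WT, and 4.69 and 4.61 in Evi-iECKO. This is the kinase subunit, and the groups overlapped. Birc5 had log2 levels of 6.99 and 6.77 in Rspo3-WT, 6.97, 6.74 and 6.60 in Rspo3-iECKO, 6.60, 6.41 and 6.54 in Evi-WT, and 6.47 and 6.76 in Evi-iECKO. This is survivin, the subunit that anchors the complex at centromeres, and its groups overlapped in both lines.

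At the centromere and kinetochore, 6 of 7 genes were measured. Cenpf, a kinetochore and nuclear matrix protein, was higher on both Evi-iECKO arrays than on all Evi-WT arrays. Cenpf had log2 levels of 6.16 and 5.82 in Rspo3-WT, 6.16, 6.26 and 5.89 in Rspo3-iECKO, 6.11, 5.54 and 6.07 in Evi-WT, and 6.21 and 6.46 in Evi-iECKO. The log2 difference was 0.43 (SE 0.22, adjusted p = 0.685), and a second probe gave -0.16. Spc25, a subunit of the NDC80 complex that binds microtubules, had differences of opposite sign in the 2 lines. Spc25 had log2 levels of 5.01 and 4.88 in Rspo3-WT, 5.29, 5.40 and 5.19 in Rspo3-iECKO, 5.60, 5.55 and 5.09 in Evi-WT, and 4.96 and 5.15 in Evi-iECKO. Its difference was 0.34 (SE 0.19) in the Rspo3 line, where groups did not overlap, and -0.36 (SE 0.19) in the Evi line, where they did. A second Spc25 probe, detected on all 10 arrays, gave -0.48 and -0.45, the same sign in both lines. Cenpa had log2 levels of 7.66 and 7.33 in Rspo3-WT, 7.43, 7.28 and 7.30 in Rspo3-iECKO, 7.86, 6.86 and 7.23 in Evi-WT, and 7.96 and 7.18 in Evi-iECKO. This is the centromeric histone, with differences of -0.16 (SE 0.29) and 0.25 (SE 0.29), which were 0.01 without Rspo3-WT replicate 1 and -0.14 without Evi-iECKO replicate 1.

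Of the mitotic kinesins, the motors that move chromosomes and spindle poles, all 6 were measured. In the Rspo3 line all 6 had a higher mean in the deleted group, with log2 differences between 0.08 and 0.41 by the brightest probes and no gene past the threshold. Other probes of Kif4 gave -0.27 and -0.10, and a second probe of Kif23 gave -0.20. In the Evi line 2 of 6 were higher. Kif11 had log2 levels of 6.91 and 6.29 in Rspo3-WT, 6.42, 6.63 and 7.32 in Rspo3-iECKO, 6.32, 6.09 and 6.80 in Evi-WT, and 6.69 and 6.49 in Evi-iECKO. This motor slides spindle poles apart, and its groups overlapped. Kif4 had log2 levels of 5.02 and 5.31 in Rspo3-WT, 5.26, 5.40 and 6.07 in Rspo3-iECKO, 5.66, 5.11 and 4.90 in Evi-WT, and 4.96 and 5.0 in Evi-iECKO. Kif4, a chromosome-bound motor, was high on Rspo3-iECKO replicate 3. Kif22 had log2 levels of 7.13 and 7.21 in Rspo3-WT, 7.21, 7.30 and 7.52 in Rspo3-iECKO, 7.81, 6.38 and 6.36 in Evi-WT, and 8.16 and 6.87 in Evi-iECKO. For Kif22, the motor that pushes chromosome arms, the Evi-line difference of 0.67 (SE 0.42) was 0.02 without Evi-iECKO replicate 1.

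The 5 measured spindle assembly genes, Aurka, Tpx2, Prc1, Nusap1 and Ckap2, had a higher mean in Rspo3-iECKO in all 5 cases (log2 0.02 to 0.23) and in Evi-iECKO in 4 of 5, by the brightest probes. For the Rspo3 deletion the other Nusap1 probes gave -0.22 and -0.42, and a second Prc1 probe gave -0.07. The first of these Nusap1 probes was detected on 2 arrays, both of Rspo3-WT. It passed the filter through that group alone, so its sign follows from the filter. The second was detected on 3 arrays, and its log2 levels in Rspo3-WT were 5.47 and 4.27. Anln had log2 levels of 5.62 and 5.55 in Rspo3-WT, 5.32, 5.51 and 5.28 in Rspo3-iECKO, 5.63, 5.12 and 5.44 in Evi-WT, and 5.64 and 5.81 in Evi-iECKO. Anln, the scaffold anillin of the cytokinetic ring, was lower on every Rspo3-iECKO array than on both controls, and higher on both Evi-iECKO arrays than on all controls. Its log2 differences were -0.21 for the Rspo3 deletion and 0.33 for that of Evi, and a second probe gave 0.17 and -0.17, the opposite order. Anln was the 1 gene of the 42 with such opposite separation, which 2.35% of all genes had. The 7 genes of chromosome condensation, which includes condensin subunits, Top2a and Mki67, had log2 differences between -0.17 and 0.26 for the Rspo3 deletion, and -0.06 and 0.21 for that of Evi.

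Taking both deletions at once, the mean effect had 24 of 42 genes higher and a median log2 difference of 0.03, and 1 gene, Cdc25b, had an unadjusted p below 0.05 (-0.28, limma adjusted p = 0.837), where 5.82% of all genes had. No gene of the 42 had non-overlapping groups in the same direction in both lines, where 2.48% of all genes did. In the difference between the deletions, Spc25 (-0.70, limma adjusted p = 0.791) and Gtse1 (1.16, adjusted p = 0.809) had an unadjusted p below 0.05, where 6.06% of all genes had. The second Spc25 probe gave 0.03 for that difference, and Gtse1 was 0.39 without Evi-iECKO replicate 1. The other 2 Gtse1 probes gave 0.52 and 0.35 with all arrays. The arrays of a deletion and its controls did not overlap for 9 of 42 genes in the Rspo3 line, against 22.6% of all genes, and for 4 of 42 in the Evi line, against 20%.

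Next the lines were compared, across all 5 arrays of each. No mitotic gene passed (limma, Benjamini-Hochberg), while 0.774% of all genes did, 44 higher and 81 lower in the Evi line. At an unadjusted p below 0.05 there were 4 of the 42 genes, where 15.3% of all genes had such a p. The line comparison also carries mouse stock, litter and processing, which cannot be told apart from it. All 10 endothelial markers were lower in the Evi line (median log2 difference -0.30), 1 of them past the threshold (Tie1, adjusted p = 0.0464), and 4 of 5 measured airway epithelium markers were higher, 1 past the threshold (Scgb1a1, 2.19, adjusted p = 0.0458). The part of these shifts in the mitotic genes was not tested. Top2a, the topoisomerase that untangles chromosomes, had the smallest p. Top2a had log2 levels of 5.29 and 5.18 in Rspo3-WT, 5.44, 5.63 and 5.41 in Rspo3-iECKO, 5.09, 4.43 and 4.41 in Evi-WT, and 5.41 and 4.17 in Evi-iECKO. Arrays of the Evi line spread from 4.17 to 5.41, and the 2 highest of them reached the Rspo3 range or just below it. The log2 difference was -0.65 (SE 0.22, adjusted p = 0.186), but the other 2 probes of Top2a gave 0.37 and 0.21, the opposite direction. The brightest probe was detected on 2 of 3 Evi-WT arrays and 1 of 2 Evi-iECKO arrays. The other 2 were detected on 7 and 3 of the 10 arrays. Cdca8, borealin of the passenger complex, gave -0.43 (SE 0.18, adjusted p = 0.266), and its second probe -0.54. Cdca8 had log2 levels of 8.08 and 7.70 in Rspo3-WT, 7.83, 7.65 and 7.92 in Rspo3-iECKO, 7.83, 7.31 and 7.08 in Evi-WT, and 7.70 and 7.15 in Evi-iECKO. The arrays of the lines overlapped. Nusap1, a microtubule-bundling protein, was the only one of the 42 without overlap between the lines, where 3.87% of all genes had none. Nusap1 had log2 levels of 5.10 and 4.74 in Rspo3-WT, 5.03, 5.26 and 5.17 in Rspo3-iECKO, 5.46, 5.32 and 5.35 in Evi-WT, and 5.56 and 5.29 in Evi-iECKO. Its log2 difference was 0.36 (SE 0.13, adjusted p = 0.202), and its other 2 probes gave -0.16 and -0.33. The first of those 2 was detected on 2 arrays only, both of Rspo3-WT, so its sign follows from the filter. The second was detected on 3 arrays. Espl1 gave -0.35 (SE 0.16, adjusted p = 0.307). Kif20a had log2 levels of 5.13 and 5.21 in Rspo3-WT, 5.30, 5.04 and 5.43 in Rspo3-iECKO, 5.49, 5.50 and 5.62 in Evi-WT, and 5.42 and 5.42 in Evi-iECKO. Kif20a, a motor of the central spindle, gave 0.26 (SE 0.12, adjusted p = 0.33).

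In the wild-type arms alone, 14 of 42 genes were higher in Evi-WT than in Rspo3-WT, with a median log2 difference of -0.12, beside 0.02 over all genes. That median was 0.01 without Rspo3-WT replicate 1 and -0.02 without Evi-WT replicate 2. In the same arms 8 of 10 endothelial markers were lower and 3 of 5 airway markers higher, with none past the threshold. None of the 42 passed (0.0372% of all genes did), 2 had an unadjusted p below 0.05 where 8.81% of all genes had, and 10 did not overlap where 25.5% of all genes did not. The 2 genes were Nusap1 (0.46) and Spc25 (0.46) by the brightest probes. Other Nusap1 probes gave -0.28 and -0.65. The first of them passed the filter through Rspo3-WT alone, so its sign follows from the filter. A second Spc25 probe gave 0.09. Cdca8 gave -0.48 (SE 0.25), and its second probe, detected on all 10 arrays, gave -0.99 (SE 0.25). Cdc20 gave -0.79 (SE 0.40, adjusted p = 0.614) by its brightest probe, and the other 3 gave -0.30, -0.14 and -0.31.

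In Rspo3-WT, Evi-WT and Evi-iECKO, replicate 1 read higher than the others in the mitotic genes as a whole. The mean of the 42 genes, in log2 units from each gene's mean over the arrays, was 0.13 and -0.12 in Rspo3-WT, 0.04, 0.04 and 0.10 in Rspo3-iECKO, 0.14, -0.20 and -0.14 in Evi-WT, and 0.16 and -0.16 in Evi-iECKO. Both deleted groups lay within the range of the controls of their line, except that Evi-iECKO replicate 1 was above Evi-WT replicate 1 by a small amount. Rspo3-WT replicate 1 read above replicate 2 for 31 of 42 genes, beside 50% of all genes. Evi-WT replicate 1 read above replicates 2 and 3 for 31 and 30 genes, beside 50.1% and 50.4% of all genes. Evi-iECKO replicate 1 read above replicate 2 for 29, beside 52%. Evi-WT replicate 2 read above replicate 3 for 19, beside 50.5%. In Rspo3-iECKO, replicate 1 read above replicates 2 and 3 for 22 and 21, and replicate 2 above replicate 3 for 18. Of all genes, 48.9%, 47.1% and 47.8% did. The median within-group SD was 0.33 for the 42 genes and 0.24 for all genes.

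**Figure D5:**
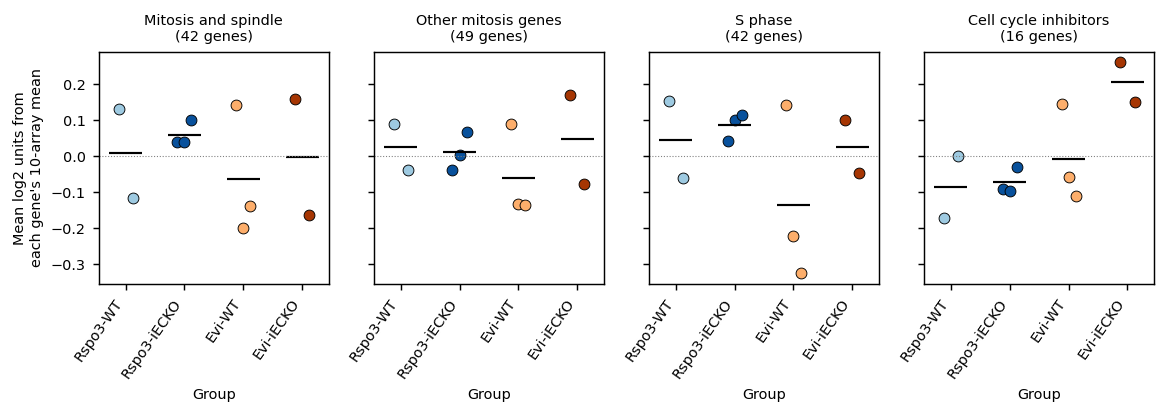
Mean log2 deviation of each gene list on each array (points) by group, with the group mean (bar), for the 42 mitosis and spindle genes, 49 other mitosis genes, 42 S-phase genes and 16 cell cycle inhibitors. In the mitosis panel the Evi-WT arrays run from -0.20 to 0.14, and the 2 Evi-iECKO arrays stand on both sides of 0.

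Other cell cycle genes were read beside them. Of 49 other mitosis genes the median log2 difference was -0.02 for the Rspo3 deletion, and 0.11 for that of Evi, and of 42 S-phase genes 0.04 and 0.15, with no gene past the threshold. Cdk1, the kinase of mitotic entry, gave -0.11 (SE 0.23) and 0.33 (SE 0.23), Foxm1, a transcription factor of mitotic genes, gave 0.32 (SE 0.24) and 0.31 (SE 0.24), and Mcm2, of the replicative helicase, gave 0.29 (SE 0.20) and 0.18 (SE 0.20). Mybl2, a partner of the MuvB complex, gave -0.10 (SE 0.47) and 0.50 (SE 0.47), and the second was -0.12 without Evi-iECKO replicate 1. Among 16 cell cycle inhibitors, 3 had an unadjusted p below 0.05 in the mean of both deletions, all higher, and none passed. That is 18.8% of a list chosen with earlier results of these data known, where 5.82% of all genes had such a p. In that mean 10 of the 16 were higher and 6 lower, with a median log2 difference of 0.03. Cdkn1a had log2 levels of 6.89 and 7.16 in Rspo3-WT, 7.57, 7.59 and 7.42 in Rspo3-iECKO, 7.46, 7.19 and 6.78 in Evi-WT, and 8.27 and 7.87 in Evi-iECKO. This is p21, the inhibitor that p53 induces. The deleted arrays of each line lay above all their controls, and the mean log2 difference was 0.71 (SE 0.16, adjusted p = 0.365). Ccng1 had log2 levels of 6.72 and 7.04 in Rspo3-WT, 7.74, 7.58 and 7.75 in Rspo3-iECKO, 7.13, 6.92 and 6.92 in Evi-WT, and 7.29 and 7.68 in Evi-iECKO. Cyclin G1, another p53 target, also had no overlap in either line, with a mean difference of 0.65 (SE 0.13, adjusted p = 0.255). Of all genes, 2.48% had non-overlapping groups in the same direction in both lines. Gadd45a and Btg2, of the same list, had overlapping groups in both lines. A part of p53 in the differences of Cdkn1a and Ccng1 was not tested. Cdkn1b, the inhibitor p27, gave a mean difference of -0.27 (SE 0.24), which was 0.10 without Evi-iECKO replicate 1. In the S-phase list Chaf1b, a histone chaperone subunit, gave 0.67 (SE 0.17, adjusted p = 0.503).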

How the data were processed

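The authors deposited mean bead intensity per probe and array with a detection p-value for each, per the file headers, and a second table of normalized intensity made by a method that the sources used here do not name. Intensities were background-corrected, quantile-normalized and taken to log2 with neqc of limma 3.58.1 (offset 16, R 4.3.3), which reads the deposited p-values. It takes them as ranks among negative control probes, which they are not, as the smallest deposited detection p was 3.2e-87. A background correction without these p-values was among the alternatives. Of 46237 probes, 30017 reached a detection p below 0.05 on 2 or more arrays, and the brightest represented each of 16144 genes. Symbols came from the platform annotation, updated against RefSeq. The 4 group means were fitted jointly over the 10 arrays, with Benjamini-Hochberg adjustment over all genes and a threshold of 0.05. The fit and its calls were tested on simulated gene-level values, and the steps before the fit were not. Figures used Python 3.11.15 and matplotlib 3.10.9.

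The genes, lists, named genes and tests were chosen with earlier results of these data known. Values for every array are given for fixed marker genes and for the 5 genes of smallest p in each of the 6 comparisons. Of other cell cycle genes, fixed ones and up to 2 of smallest p per list and comparison could be named. Gadd45a and Btg2 were added after seeing the data. A gene undetected on all arrays of a group has only a bound there. The labels' replicate numbers were not treated as pairs. Over all genes, the correlation of deviations from the group mean between same-numbered arrays was -0.0154 and 0.0002 in the Rspo3 line. In the Evi line it was 0.127 and -0.122. Deviations in a group of 2 arrays mirror each other, so these values cannot decide whether the arrays are paired. A fit with a replicate block is given below. Alternatives covered background correction, scaling, the authors' normalized values, filters, probes, array weights, the variance prior, a replicate block and leaving out each array.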

Additional observations from a re-analysis of the deposited data

Results flagged for a closer look

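Anln, the anillin gene, had differences of opposite sign in the 2 lines, with every Rspo3-iECKO array below its controls and every Evi-iECKO array above its controls. The difference between the deletions was 0.54 on the log2 scale (SE 0.27), with a limma Benjamini-Hochberg adjusted p of 0.858, so it did not pass. It was the 1 gene of the 42 with such opposite separation, where 2.35% of all genes had it. A second Anln probe gave -0.34.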

How the results depend on the processing

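No mitotic gene passed in either deletion, their mean, their difference or the wild-type arms under any alternative run. In the line comparison the count was 11 instead of 0, all lower in the Evi line, with median scaling, which also moved the median of all genes to -0.13 and called 18.1% of them (98.1% lower, against 64.8% of calls with quantile normalization). There Top2a was at -0.85, Cdca8 at -0.91, Espl1 at -0.52 and Mki67 at -0.54, and the median of the 42 lay -0.13 from that of all genes. Leaving out single arrays gave 0 to 2 such genes; the 2, without Evi-iECKO replicate 1, were Cdc20 (-1.03, adjusted p = 0.0425) and Top2a (-0.96, adjusted p = 0.0313).

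With median scaling the median log2 difference of the 42 genes was 0.23 for the Rspo3 deletion (all genes 0.11), -0.24 for the difference between deletions (all genes -0.13), -0.27 between the lines and -0.29 in the wild-type arms (all genes -0.09). Leaving out single arrays gave medians of -0.12 (without Rspo3-WT replicate 2) to 0.15 for the Rspo3 deletion, -0.10 to 0.18 (without Evi-iECKO replicate 2) for the Evi deletion, and -0.12 to 0.20 for their difference (without Rspo3-WT replicates 1 and 2 in turn). In the wild-type arms they were -0.22 to 0.01.

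Signs turned with the second brightest probe for Anln (-0.17 in the Evi line, -0.34 in the difference), Cenpf (-0.16 in the Evi line, -0.028 in the mean effect), Kif4 (-0.27 in the Rspo3 line, 0.040 in the difference), Nusap1 (-0.33 between lines, -0.65 in the wild-type arms), Spc25 (-0.48 in the Rspo3 line, 0.028 in the difference) and Top2a (0.37 between lines). They turned with the mean of all detected probes for Nusap1 (-0.042 between lines, -0.16 in the wild-type arms) and Spc25 (-0.068 in the Rspo3 line), and with median scaling for Kif20a (-0.036 between lines). The cause was not tested. Values without single arrays for named genes in each deletion were added after seeing the data.

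A replicate block changed no call for the 42 genes, with medians of 0.05 and 0.02 for the deletions, and took the count over all genes between the lines from 125 to 57. That count was 11 to 319 without single arrays, 44 without a filter, 60 with array weights, 244 with a trended robust prior, 230 and 211 with other background corrections, 275 with the authors' normalized values and 2927 with median scaling. The wild-type count of 6 was 0 with the replicate block, without a filter or with the mean of all probes, 2 fitted alone, 3 with the larger offset, 11 without background correction, 31 with the trended prior, 45 with median scaling and 0 to 9 without single arrays. Over all genes the count of 0 reached 24 for the Evi deletion and 6 for the difference without Evi-iECKO replicate 1, and 6 for the mean effect without Evi-iECKO replicate 2 or with the trended prior. With 2 or 3 arrays a group, an arm left with 1 array was assumed to vary like the other groups.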
